A study of Mus musculus with 6 samples.

Results

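The miR-181 family consists of 4 mature guide strands, mmu-miR-181a, mmu-miR-181b, mmu-miR-181c and mmu-miR-181d (below without the species prefix), measured here by 4 capture probes among 597 probes that name a mouse miRNA. The probes were chosen by name, as those whose label holds one of the 4 names as a whole token, and each is printed in 4 replicate spots on every array. The arrays compared retinal cells of B10.RIII mice developing experimental autoimmune uveoretinitis (EAU) on day 14 (3 samples) with retinal cells of naive B10.RIII mice (3 samples), all aged 8 weeks and harvested independently. EAU is an inflammation of the retina driven by T cells, used as a model of human uveitis. The labels give neither the antigen nor the number of mice behind each sample, so p-values measure the spread between harvests. Each sample gave 800 ng of total RNA, which carried the dye Hy3 and competed on its array with a pool of all samples that carried Hy5. The unit below is log2(Hy3/Hy5) of a probe, where 0 means as bright as the pool after normalization and a positive difference means more of the miRNA in EAU.

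MiR-181 miRNAs bind their targets through the seed, bases 2 to 8 of the guide strand. In the retina they are known from the inner layers, where amacrine and ganglion cells express them, and in medaka fish miR-181a and miR-181b act in the growth of axons of these neurons. In lymphocytes miR-181a is abundant in developing T cells, where in mouse it lowers phosphatases of the T cell receptor pathway and so sets the sensitivity of the receptor. Both retinal neurons and lymphocytes are thus known sources of the family.

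The 4 guide strands are shown because they share one seed and differ downstream of it, where the capture probes must tell them apart. They were read 5′ to 3′ from RefSeq (build GRCm38.p6), in which all 4 names matched as the 5p strands, and the capitals mark the seed.
miR-181a: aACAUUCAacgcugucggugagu
miR-181b: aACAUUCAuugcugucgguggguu
miR-181c: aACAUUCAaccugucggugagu
miR-181d: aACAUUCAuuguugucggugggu
Of 1679 mature mouse names in the table, these 4 carry the seed. MiR-181b and miR-181d differ by 1 substitution, C12U (base of miR-181b, position from its 5′ end, base of miR-181d), beside a base that extends the 3′ end of miR-181b. MiR-181a and miR-181c differ by 1 gap and no substitution. MiR-181c and miR-181d, at the other extreme, differ by 4 substitutions and 1 gap, with 18 identical bases. MiR-181a and miR-181d differ by 4 substitutions and no gap, A9U, C10U, C12U and A21G (positions from the 5′ end of miR-181a). How far each probe captures its relatives was not tested.

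The 4 strands come from 3 pairs of neighbouring genes. The guide of Mir181a-1 lies at chr1:137966468-137966490 on the plus strand (GRCm38.p6) and that of Mir181b-1 at chr1:137966650-137966673, 159 bases further on, and no other gene of the table overlaps their hairpins. A second copy of each lies on chromosome 2, at chr2:38852741-38852763 for Mir181a-2 and chr2:38853845-38853868 for Mir181b-2, 1081 bases apart, inside the protein-coding gene Nr6a1 and the long non-coding RNA Nr6a1os. Mir181c (chr8:84178924-84178945) and Mir181d (chr8:84178759-84178781) lie 142 bases apart on the minus strand of chromosome 8. The guides of Mir181a-1 and Mir181a-2 have the same sequence, as do those of Mir181b-1 and Mir181b-2, so the guide probes cannot tell the copies apart. The passenger strands of the miR-181a copies do differ, by U5C and U16C (base of miR-181a-1*, position from its 5′ end, base of miR-181a-2*), and each has a probe of its own. They are shown in the same way, with bases 2 to 8 in capitals.
miR-181a-1*: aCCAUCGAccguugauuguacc
miR-181a-2*: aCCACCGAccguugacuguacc

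The arrays were dim. The median spot brightness in the sample channel was 56.2 to 94.8 on the EAU arrays and 56.8 to 74.2 on the naive arrays. A probe counts as above the blanks where at least 50% of its spots exceed the level of blank and negative-control spots. In the sample channel 249 to 315 mouse probes were so on the EAU arrays, against 252 to 292 on the naive arrays. In the channel of the pool, the same RNA on every array, 149 to 293 mouse probes did so on the EAU arrays and 239 to 314 on the naive arrays, and the lowest of these was EAU replicate 3. One scan day held the EAU arrays and another the naive ones, and day of scanning and group therefore cannot be told apart.

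All 4 guide strands had lower log2 ratios in EAU after loess with an offset of 50 units, and 2 of the 4 passed the test, miR-181b and miR-181d. With the local background plainly subtracted and no normalization, miR-181a (0.19) and miR-181d (0.066) had the other sign and none of the 4 passed, while the median of all tested probes lay at 0.21 on that scale. Of the 595 mouse probes in the test, 77 (12.9%) had an adjusted p under 0.05, 52 of them lower in EAU (8.74%) and 25 higher (4.2%). That total was 7 without EAU replicate 3 and 9, 15 and 36 without naive replicates 1, 2 and 3. No probe was left out of the test for a low signal, and 3 of the 4 guide probes (miR-181a, miR-181b and miR-181d) were above the blanks on all 6 arrays. The family's median difference was -0.38, against -0.012 over all tested probes. On each of the 4 probes every EAU array lay below every naive array, a pattern that 29.6% of the tested probes showed, while 46.6% had groups without overlap, whichever group was higher. In retinal tissue as a whole, fewer cells of a type and less miRNA per cell cannot be told apart.

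MiR-181b, which differs from miR-181a by 3 substitutions downstream of the seed, had the smallest adjusted p of the family. Its log2 ratio was 0.082, 0.085 and 0.054 in EAU replicates 1 to 3, against 0.51, 0.67 and 0.64 in naive replicates 1 to 3. The EAU arrays lay within a few hundredths of each other, and the gap to the nearest naive array was 0.42. The difference was -0.53 (SE 0.046, 95% interval -0.65 to -0.42), which is 1.44-fold lower in EAU (limma, Benjamini-Hochberg adjusted p = 0.00702), the third smallest p of the 595 probes. The call held without any single array (adjusted p between 0.00343 and 0.0468), but was lost in 6 of 18 other settings (adjusted p over the 18 between 0.00333 and 0.347), among them median centring in place of loess (-0.71, adjusted p = 0.118). The size depends on the processing. With no offset the log2 difference was -0.98 and did not pass (limma, adjusted p = 0.0524). It was -1.20 with the scanner software's processed signals and -0.99 in the deposited table, which may differ in more than the offset. The separation depends on it too. With the local background plainly subtracted and no normalization, sample over pool was 11.5, 10.5 and 13.2 in EAU replicates 1 to 3. In naive replicates 1 to 3 that ratio was 13.2, 11.8 and 24.0, so the groups overlapped.

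A second probe on the array, named for human miR-181b alone, gave a separate reading with 4 spots of its own. Its log2 ratio was -0.068, -0.26 and -0.11 in EAU replicates 1 to 3, against 0.27, 0.42 and 0.34 in naive replicates 1 to 3. The groups did not overlap here either, as on 46.6% of the tested mouse probes (29.6% with EAU lower). In a limma fit over 1958 probes of any species, of which 6.49% passed (4.39% lower and 2.09% higher in EAU), the difference was -0.49 (SE 0.065, adjusted p = 0.0262). The mouse-named miR-181b probe differed by -0.53 in that fit (adjusted p = 0.014). The probes share the RNA and the arrays, so they are no replicates of the condition.

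MiR-181d, encoded beside miR-181c, differed by less. Its log2 ratio was 0.041, 0.14 and 0.033 in EAU replicates 1 to 3, against 0.23, 0.38 and 0.30 in naive replicates 1 to 3. The highest EAU array and the lowest naive array lay 0.087 apart. The difference was -0.23 (SE 0.05, 95% interval -0.36 to -0.10), 1.17-fold lower in EAU, and it passed narrowly (limma, adjusted p = 0.0455). It passed without EAU replicate 2 (-0.27, adjusted p = 0.0446), and did not pass without EAU replicate 1 or 3 or without naive replicate 1, 2 or 3 (adjusted p = 0.0863, 0.116, 0.0854, 0.112 and 0.0969). Of 18 other settings it passed in 6 (adjusted p over the 18 between 0.0153 and 0.974). In the authors' deposited table the ratio of miR-181d was 1.60, 2.09 and 2.04 in EAU replicates 1 to 3 and 1.61, 2.05 and 2.00 in naive replicates 1 to 3, a difference of 0.017 (adjusted p = 0.974). That row nearly repeats between the EAU and naive arrays of the same number and does not follow the ratios computed here, and why it does so was not tested.

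MiR-181a, the member best known in T cells, had the widest spread between arrays. On the scale of the offset of 50 its mean difference was close to that of miR-181b, and it was the smaller of both with no offset (-0.53 against -0.98 for miR-181b) and with processed signals (-0.64 against -1.20 for miR-181b). Its log2 ratio was 0.012, -0.53 and 0.10 in EAU replicates 1 to 3, against 0.47, 0.26 and 0.53 in naive replicates 1 to 3. EAU replicate 2 stood far below the other EAU arrays, and its value rests on 2 of 4 spots, because the scanner software marked the others as outliers. The difference was -0.56 (SE 0.18, 95% interval -1.02 to -0.094) and did not pass (limma, adjusted p = 0.0996). Without EAU replicate 2 it was -0.36 (adjusted p = 0.0857), and with the outlier spots kept it was -0.59 and passed (adjusted p = 0.0387). Over 19 settings its adjusted p ran from 0.00792 to 0.766, and 2 of them passed.

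MiR-181c, the neighbour of miR-181d on chromosome 8, had the smallest difference on the scale of the offset of 50, but not with no offset (-0.58) or with processed signals (-0.71). Its log2 ratio was 0.013, -0.066 and 0.0043 in EAU replicates 1 to 3, against 0.034, 0.17 and 0.13 in naive replicates 1 to 3. The difference of -0.13 (SE 0.043, 95% interval -0.23 to -0.018) did not pass (limma, adjusted p = 0.104), nor did it in any of 18 other settings (adjusted p between 0.0577 and 0.94). Its sample signal lay above the blanks on none of the 3 EAU arrays and on all 3 naive arrays. On naive replicate 1 the mean of its spots, 86.5 units, was under the blanks' level of 89.3, though at least 50% of the spots exceeded it. In the sample channel alone, after loess and quantile normalization between arrays, EAU values were raised to the dimmest probe above the blanks of their array. The mean level was then 1.21-fold lower in EAU, and the difference without that step did not pass (limma, adjusted p = 0.0606). The blanks' level itself differed between arrays, at 107 units on EAU replicate 2 and 65.7 on naive replicate 3, and no dyes were swapped. The value is thus no firm lower bound.

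**Figure D1:**
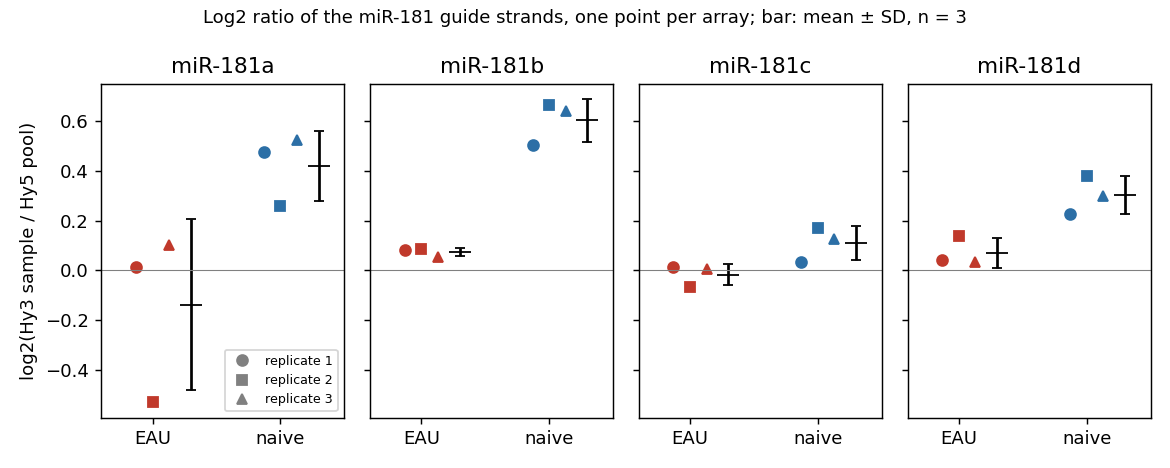
Log2 ratio of sample over pool (y axis) for the 4 miR-181 guide probes in EAU (red) and naive (blue) retinal cells, with a point for each array and the mean ± SD of 3 arrays beside them. Every red point lies below every blue point of its panel, with the widest gap, 0.42, for miR-181b, and EAU replicate 2 stands apart at -0.53 for miR-181a.

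The ratio rests on 2 channels, and before correction the mean signal of every guide probe was lower on the EAU arrays in both. The exact permutation tests of these signals cannot decide on a difference, because the smallest p that 3 against 3 allows is 0.1. For miR-181a the sample signal before correction was 635, 1279 and 289 units in EAU replicates 1 to 3, against 1218, 1396 and 1317 units in naive replicates 1 to 3. EAU replicate 2 lay inside the naive range and EAU replicates 1 and 3 far below it. The signal of the pool at this probe was 88.4, 185 and 49.6 units on the EAU arrays, against 151, 269 and 127 units on the naive arrays. The pool signal at miR-181a was thus lower on the EAU arrays by 0.89 on the log2 scale, with overlapping groups (exact permutation test, two-sided, p = 0.3, adjusted over the 4 members p = 0.4). The pool was the same RNA on every array. For the sample signal the exact permutation p was 0.2 for miR-181a, 0.1 for miR-181b and 0.3 for miR-181c and miR-181d.

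At the other members the pool was close to its background. Before background subtraction, the log2 difference of the pool signal was -0.12 for miR-181b, -0.093 for miR-181c and -0.14 for miR-181d, with exact permutation p-values of 0.7, 0.3 and 0.2, and the smallest that 3 against 3 allows is 0.1. After subtraction of the local background the pool differed by -0.60 for miR-181b, -0.61 for miR-181c and -0.67 for miR-181d, beside -1.02, -0.64 and -0.60 in the sample channel. For miR-181a these differences were -1.31 in the pool and -1.12 in the sample channel. The sample thus differed by more than the pool at miR-181b, by about as much at miR-181c, and by less at miR-181a and miR-181d. An exact permutation test of 3 against 3 could not pass in either channel. With those subtracted ratios centred on each array's median, the differences were -0.17, -0.77, -0.38 and -0.29 for miR-181a, miR-181b, miR-181c and miR-181d, against a median of -0.14 over all tested probes, and miR-181b passed (limma, adjusted p = 0.0214). The pool lay above the blanks at miR-181b on 2 EAU and 3 naive arrays, at miR-181d on 1 EAU and 3 naive arrays, and at miR-181c on 1 EAU and 0 naive arrays. The sample signal of miR-181b was 150, 215 and 76.2 units in EAU replicates 1 to 3, against 271, 233 and 230 units in naive replicates 1 to 3. All 3 EAU values were below the naive ones. The sample signal of miR-181d was 96.6, 152 and 72.0 units in EAU replicates 1 to 3, against 144, 152 and 126 units in naive replicates 1 to 3. Here EAU replicate 2, the array with the brightest median, reached the naive range. The sample signal of miR-181c was 66.8, 95.6 and 47.9 units in EAU replicates 1 to 3, against 86.5, 97.5 and 86.5 units in naive replicates 1 to 3, and EAU replicate 2 again lay within the naive range.

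**Figure D2:**
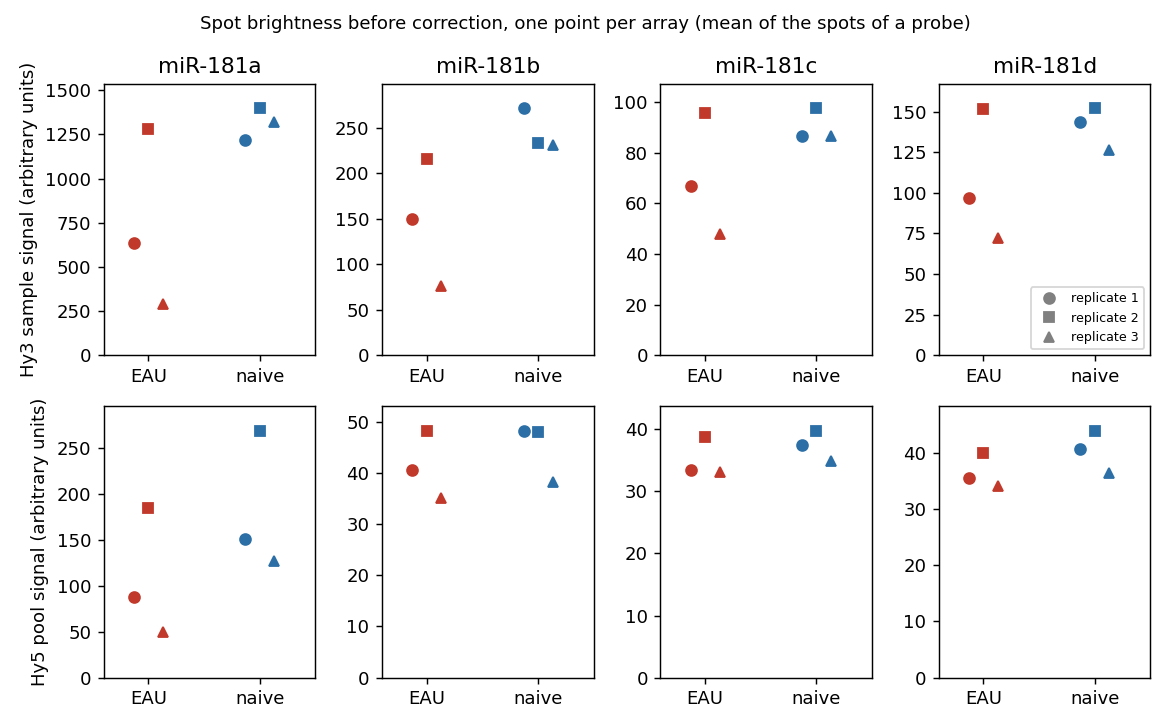
Brightness of the 4 guide probes before correction, in arbitrary units from 0, for the Hy3 sample channel (upper row) and the Hy5 pool (lower row), with a point for each EAU (red) and naive (blue) array. EAU replicate 3 is the dimmest array at every probe in both rows, at 289 units for miR-181a in the sample channel, and the pool, which is the same RNA throughout, also varies between arrays.

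Taken in the sample channel alone, after loess and quantile normalization between arrays, 3 of the 4 guide strands passed, all lower in EAU. Of all tested probes, 10.6% passed there (5.71% lower and 4.87% higher). The quantile step (Aquantile) acts on the mean log2 intensity of both channels, so the pool enters this level too. MiR-181a lay at 8.09, 8.07 and 7.89 on the log2 scale in EAU replicates 1 to 3, against 8.90, 9.13 and 9.22 in naive replicates 1 to 3. On this scale EAU replicate 2 did not stand apart, and the difference was -1.07 (SE 0.10; limma, adjusted p = 0.00792). MiR-181b lay at 6.77, 6.67 and 6.42 in EAU and at 7.37, 7.15 and 7.42 in naive, a difference of -0.69 (adjusted p = 0.0232). MiR-181d differed by -0.37 (adjusted p = 0.0153) and miR-181c by -0.30 (adjusted p = 0.0606). None of the 4 had overlapping groups there, and the share of all probes without overlap was not computed on that scale. On the log2 ratio that share was 46.6% of the tested mouse probes, whichever group was higher. With the sample channel scaled to its 75th percentile instead, the differences were -1.31, -1.02, -0.59 and -0.65 for miR-181a, miR-181b, miR-181c and miR-181d, none of the 4 passed (adjusted p between 0.0724 and 0.822), and the median of all tested probes moved to -0.27.

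The authors' deposited table of ratios gave lower miR-181a, miR-181b and miR-181c in EAU, and 1 of the 4 members passed there, where 13.9% of its tested probes passed (6.8% lower and 7.14% higher in EAU). The deposited ratio of miR-181b was 1.24, 1.26 and 1.12 in EAU replicates 1 to 3, against 1.79, 2.88 and 2.69 in naive replicates 1 to 3 (log2 difference -0.99; limma, adjusted p = 0.00508). For miR-181a the deposited ratios were 0.899, 0.693 and 1.23 in EAU and 1.21, 1.48 and 1.48 in naive. EAU replicate 3 overlapped the naive arrays on that scale, and the difference of -0.60 did not pass (adjusted p = 0.0666). MiR-181c differed by -0.57 in the deposited table (adjusted p = 0.0651). How that table was normalized and centred is not given in the sources used here.

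The replicate spots allow the same comparison spot by spot. Each of the 4 spots of each guide probe gave a lower mean log2 ratio in EAU. The difference ran from -0.61 to -0.30 over the spots of miR-181a, from -0.59 to -0.48 for miR-181b, from -0.18 to -0.079 for miR-181c and from -0.25 to -0.22 for miR-181d. The level itself moved more from spot to spot than the difference did: at miR-181a the mean log2 ratio was 0.45, -0.0017, -0.37 and -0.19 over the 4 spots in EAU, against 1.07, 0.59, 0.18 and 0.11 in naive. Outlier marks left 2 EAU and 2 naive arrays at the first of these spots and 2 EAU arrays at the last. The pool was dimmest at the first spot of miR-181a on all 6 arrays and brightest at the last on 5 of the 6, and the brightest spot exceeded the dimmest by 1.54-fold to 3.31-fold, while the sample channel varied by 1.20-fold to 1.57-fold. Spots of a probe are technical repeats and were averaged before the test.

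**Figure D3:**
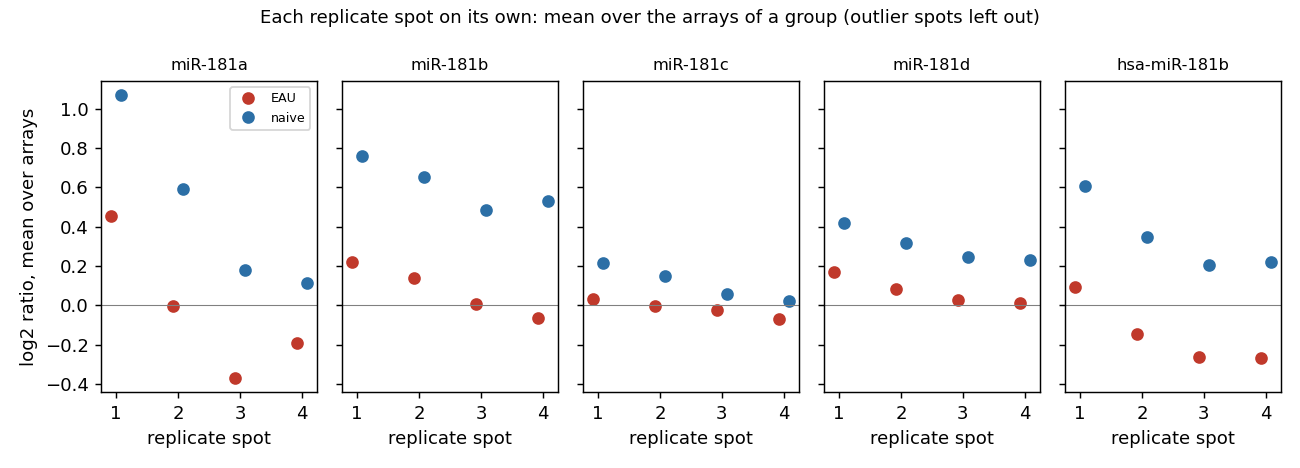
Mean log2 ratio over the arrays of a group (y axis) at each of the 4 replicate spots (x axis) of the guide probes and of the probe named for human miR-181b, for EAU (red) and naive (blue). EAU lies below naive at every spot of every probe, and the level of both groups differs between spots, at miR-181a from 0.45 to -0.37 in EAU.

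The members were then compared with each other, as the change of the log2 ratio of one minus that of another on the same array. MiR-181b exceeded miR-181d by 0.0021 ± 0.051 in EAU and by 0.30 ± 0.034 in naive (SD, n = 3 each), so that the change of miR-181b was larger by 0.30. It was likewise larger than that of miR-181c by 0.40, and in both pairs the groups did not overlap. Both p-values are the smallest the design allows and did not pass (exact permutation test, two-sided, p = 0.1, adjusted over 6 pairs p = 0.3). MiR-181a and miR-181b, which are encoded together, differed in their change by -0.027 (exact permutation p = 0.9), and miR-181c and miR-181d, the other pair of neighbours, by 0.10 (exact permutation p = 0.3), with overlapping groups in both. The offset of 50 units added to both channels moves the ratio of a dim probe toward 0. With no offset the differences of miR-181a, miR-181b, miR-181c and miR-181d were -0.53, -0.98, -0.58 and -0.50.

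**Figure D4:**
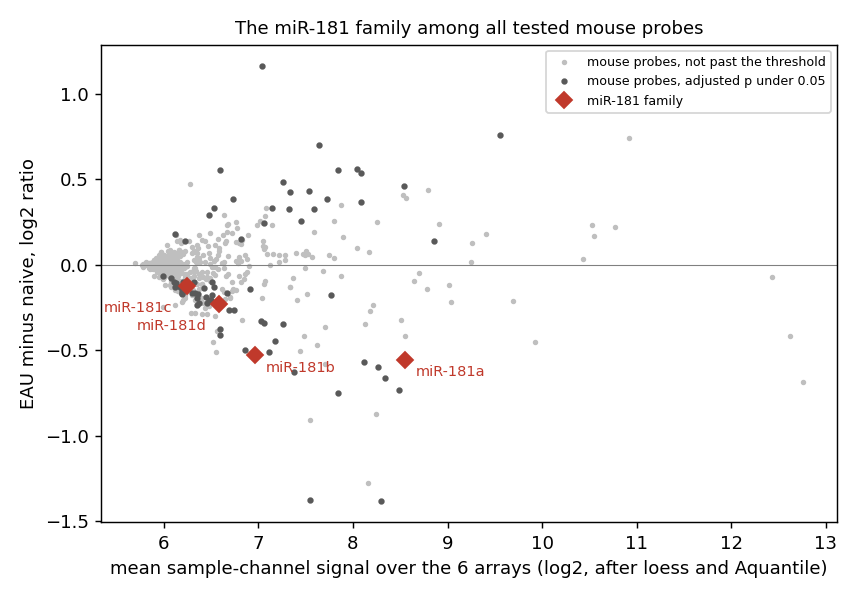
Difference in log2 ratio, EAU minus naive (y axis), against the mean sample-channel level (log2, x axis) of the 595 tested mouse probes, dark where the adjusted p is under 0.05, with the miR-181 guide probes as red diamonds. All 4 diamonds lie below 0, and miR-181c lies nearest to it at -0.13.

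Among the passenger strands, which are mostly degraded when the guide is loaded, the probe for miR-181a-1* was dim on every array. Its log2 ratio was -0.041, -0.024 and -0.022 in EAU replicates 1 to 3, against 0.041, 0.028 and 0.042 in naive replicates 1 to 3. The difference of -0.066 (SE 0.015) passed narrowly (limma, adjusted p = 0.0499), with 0 of 6 arrays above the blanks, and passed in none of the 6 fits without 1 array (adjusted p between 0.0739 and 0.154). MiR-181a-2* had ratios of -0.10, -0.14 and -0.21 in EAU, against 0.017, -0.00067 and -0.00097 in naive (difference -0.15, adjusted p = 0.0403). It lay above the blanks on 1 of 6 arrays, naive replicate 2, and in the sample channel alone its difference was -0.019 (adjusted p = 0.978). It passed in 1 of the 6 fits without 1 array, the one without EAU replicate 1 (adjusted p = 0.033). The probes named for human miR-181a-2* and miR-181c* differed by 0.049 and -0.017 and did not pass in the fit over all species (adjusted p = 0.386 and 0.46).

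Among the other mouse probes, the ones nearest to each member in pattern were found by the root mean square difference over the 6 arrays, after subtraction of each probe's own mean, among 284 probes above the blanks on at least 3 arrays. Nearest to miR-181b were miR-211 (0.063 log2 units), a miRNA of pigment epithelium, miR-30e (0.069) and let-7f (0.084). No member of the family was that close to it, with miR-181d at 0.15 and miR-181a at 0.23. Nearest to miR-181a were miR-29c (0.14), let-7d (0.15) and miR-742 (0.15). MiR-181d lay nearest to miR-872 (0.033), miR-501-5p (0.041) and let-7i (0.041), and miR-181c to miR-547 (0.025), miR-149 (0.026) and miR-92b (0.027). This is a description of 6 arrays in 2 groups.

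Markers of the cell types that the retinal samples could hold were read in the same comparison, and most of them did not pass. Of 8 lymphocyte and leukocyte miRNAs, 1 rose, miR-142-3p (0.56, limma, adjusted p = 0.0166), and 7 did not pass. Over all tested mouse probes 12.9% passed, 4.2% higher and 8.74% lower in EAU. The median of the list was 0.11, and its summed level in the sample channel was 9.47 to 9.72 on the log2 scale in EAU and 9.20 to 9.25 in naive. That sum includes dim probes, as 4 of the 8 were above the blanks on all EAU arrays and 2 on all naive arrays. MiR-142-3p and miR-142-5p, which are made by cells of the blood lineage, were above the blanks on 3 of 3 EAU arrays and 0 of 3 naive arrays. MiR-150, a miRNA of mature lymphocytes, differed by -0.10 (adjusted p = 0.294), and miR-155, which rises in activated lymphocytes, was above the blanks on no array. The direction of miR-142-3p is thus opposite to that of miR-181b and miR-181d.

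Of 12 neuronal miRNAs, 3 fell (miR-9, miR-128 and miR-129-3p), 0 rose and 9 did not pass, with a median of -0.074. For this and the following lists, the shares over all tested probes were 8.74% lower and 4.2% higher in EAU. MiR-128 was above the blanks on only 1 EAU and 1 naive array. The summed level of the neuronal list was 9.87 to 12.2 in EAU and 13.5 to 14.1 in naive, and 3 of its members were above the blanks on no array. MiR-124, known as an abundant neuronal miRNA, sets most of that sum: over the other 11 members it was 9.81 to 9.91 in EAU and 10.0006 to 10.0115 in naive. The log2 ratio of miR-124 differed by -0.69 (adjusted p = 0.52). Of the 3 photoreceptor miRNAs, miR-183 fell (-1.38, adjusted p = 0.0483), and miR-96 and miR-182 did not pass. The summed level of the photoreceptor list was 8.36 to 8.75 in EAU and 10.3 to 10.5 in naive. Both miRNAs of pigment epithelium fell, with a summed level of 8.04 to 8.67 in EAU and 9.36 to 9.51 in naive. All 7 defining markers of retina, miR-183, miR-96, miR-182, miR-124, miR-9, miR-204 and miR-211, were above the blanks on all 6 arrays. Of the markers of other tissues, 1 of 3 erythroid miRNAs was lower, miR-486 (-0.23, adjusted p = 0.0463), and none of 2 endothelial, 4 striated muscle and 3 ocular surface and lens miRNAs passed. The summed levels in EAU and naive arrays overlapped for the erythroid, endothelial and ocular surface lists. The muscle list had 8.35 to 8.38 in EAU and 8.41 to 8.79 in naive, with all 4 members above the blanks on all 6 arrays. The part of these cell types in the change of the miR-181 family was not tested.

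**Figure D5:**
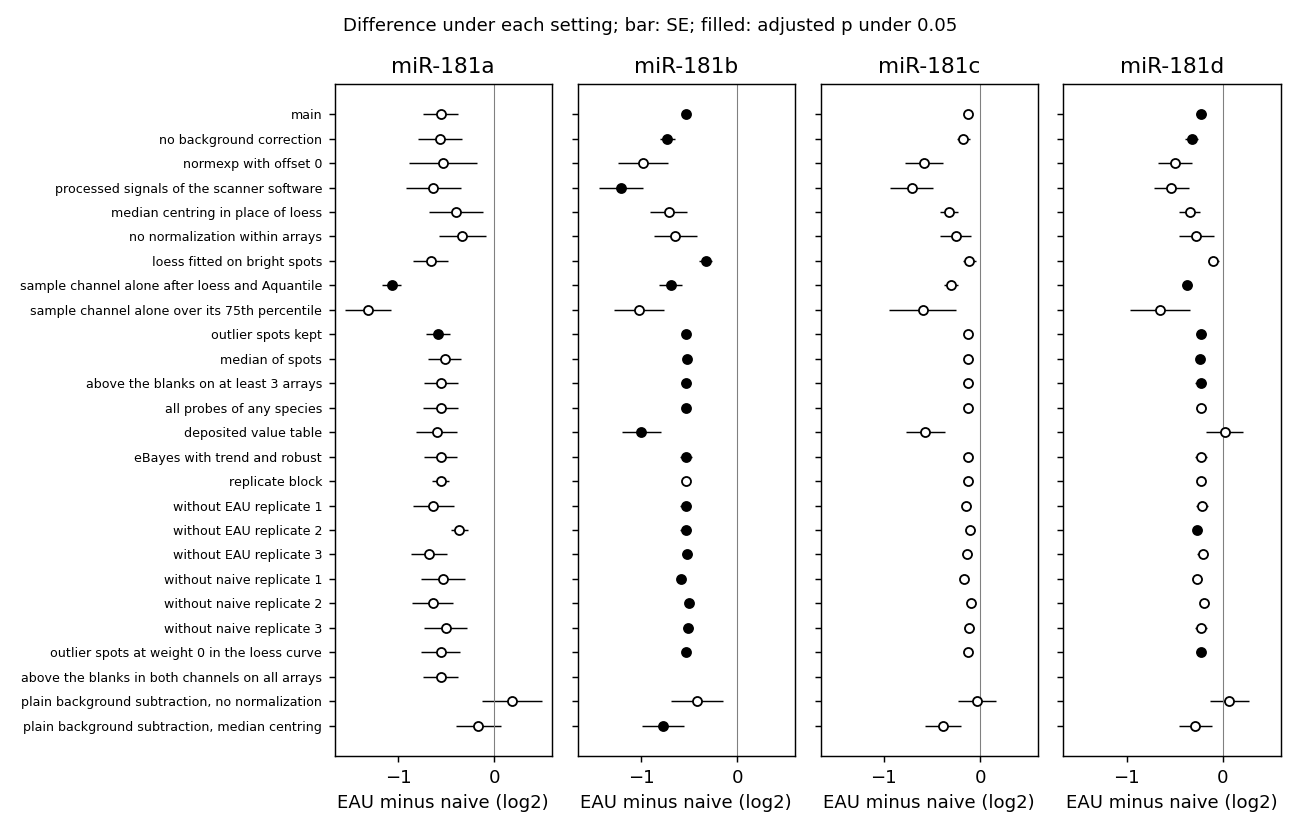
Difference in log2 ratio or level, EAU minus naive (x axis, bar: SE), of each guide probe under every setting (rows), filled where the adjusted p is under 0.05. MiR-181b is filled in most rows and negative in all, and miR-181c is filled in none. MiR-181a lies above 0 with plain background subtraction and no normalization (0.19), as does miR-181d (0.066), which also does so in the deposited value table (0.017).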

How the data were processed

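The authors deposited a scanner file per array with the intensity of 8720 spots in 2 channels (Feature Extraction 9.1.3.1 in the header), Hy3 green for the sample and Hy5 red for the pool per the labels, with no dye swap. They also deposited a table of linear ratios in 1972 rows, of which 36 above 32 on every array were left out. Set against the scanner's Hy3 over Hy5, its ratios had a median correlation across arrays of 0.93 over 340 bright probes and, within an array, correlations across 365 probes of 0.756 to 0.842 in EAU and 0.675 to 0.787 in naive; its column medians were 0.809, 0.886 and 0.807 in EAU and 0.879, 0.851 and 0.769 in naive.

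Mean signals were corrected for local background (normexp, offset 50), normalized by loess with controls at weight 0, and averaged over spots without outliers (limma 3.58.1, R 4.3.3). The scanner called 100% of mouse probes well above background. The blanks' level was therefore set from 144 blank and negative-control spots, at their median plus 3 median absolute deviations, and at least 50% of a probe's spots had to exceed it. Of 597 mouse probes, 595 had values on at least 2 arrays per group and were tested on log2 ratios with lmFit and eBayes, two-sided, Benjamini-Hochberg adjusted over all, threshold 0.05. The fit was tested on simulated data. The number of arrays limits the precision.

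Named are the members, other miR-181 probes, the 3 nearest probes in pattern, and up to 4 values per marker list. Members and lists were chosen with earlier results of these data known.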

Additional observations from a re-analysis of the deposited data

How the results depend on the processing

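Beside the fits that leave out an array, miR-181a was lower in EAU in 18 of 19 settings, miR-181b and miR-181c in 18 of 18 and miR-181d in 16 of 18. The count of calls, 77 as reported (52 lower and 25 higher), was 26 without offset (10 lower, 16 higher), 2 with median centring, 25 with no normalization (4 lower, 21 higher), 24 with loess on bright spots (7 lower, 17 higher), 4 for the sample channel over its 75th percentile, 47 with the median of spots (26 lower, 21 higher), 127 over all species, 34 for probes above the blanks in both channels on all arrays (17 lower, 17 higher; chosen after seeing the data), and 7 to 77 without 1 array (7 without EAU replicate 3, 9, 15 and 36 without naive replicates 1, 2 and 3). The splits were 30 lower and 42 higher with processed signals and 40 lower and 42 higher in the deposited table. Plain background subtraction, added after seeing the data, gave 142 calls (1 lower, 141 higher) with no normalization, where miR-181a (0.19) and miR-181d (0.066) changed sign, miR-181b did not pass (-0.42) and the median of all probes was 0.21. Centred on each array's median, it gave 152 (50 lower, 102 higher) with that median at -0.14, and miR-181d did not pass (-0.29). Scaling to the 75th percentile moved the median of all probes by -0.27.

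MiR-181a passed in the sample channel after loess and Aquantile (-1.07) and with outlier spots kept (-0.59). MiR-181b did not pass without offset (-0.98), with median centring (-0.71), no normalization (-0.64) or the 75th percentile (-1.02). MiR-181d did not pass without offset (-0.50), with processed signals (-0.53), median centring (-0.34), no normalization (-0.28), loess on bright spots (-0.099), the 75th percentile (-0.65), all species (-0.23) or eBayes with trend and robust (-0.23), and had the other sign in the deposited table (0.017). Without 1 array, miR-181a ran from -0.68 to -0.36, miR-181b from -0.58 to -0.50, miR-181c from -0.16 to -0.096 and miR-181d from -0.27 to -0.19. The causes were not tested.

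With the replicate block, 2 probes passed, and miR-181b (-0.53, adjusted p = 0.0735) and miR-181d (-0.23, adjusted p = 0.0776) did not. Whether the replicate numbers pair the samples cannot be settled from so few arrays. The deviations of same-numbered arrays correlated at 0.19, -0.15 and 0.29 over 592 probes, and 3 of 6 samples correlated best with their own number. Dim signal limits miR-181c and the passenger strands.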
